A study of Mus musculus with 9 samples.

Results

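The coreceptor genes Cd4, Cd8a and Cd8b1 were followed across 3 cell populations sorted from the spleens of naive, untreated mice aged 8 weeks that were homozygous for Zbtb46-GFP, a reporter allele that lights up cells with an active Zbtb46 locus, as conventional dendritic cells (DC) have. The 3 genes were taken by name from the 50508 symbols of the count table, all 3 were found, and all 3 were among the 14708 genes with enough reads to be tested. The submitters call one population TDC and set conventional T cells and conventional DC of such mice beside it, so the reporter genotype is common to every library. There were 3 libraries of each, and a library pooled the spleens of 5 mice in replicate 1 and of 6 mice in replicates 2 and 3. The sources used here do not give the sort gates, so it is unknown whether CD4 or CD8 antibodies took part in it. The labels do not say which mice entered which pool, and p-values therefore measure the spread between these pools. Libraries of different populations with the same replicate number share a code in their descriptions and the number of mice, and the labels do not say whether that code marks a common preparation.

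CD4 and CD8 are surface proteins that sit beside the T cell receptor. CD4 acts alone and binds MHC class II, and it is the coreceptor of helper and regulatory T cells. CD8 acts as a pair of chains that binds MHC class I: Cd8a encodes the alpha chain and Cd8b1 the beta chain, and conventional cytotoxic T cells carry the alpha-beta heterodimer. The tails of CD4 and of the CD8 alpha chain hold the tyrosine kinase Lck, which starts receptor signalling. Neither CD4 nor CD8 alpha is restricted to T cells in the mouse. Spleen DC of type 1 carry CD8 alpha as a homodimer without the beta chain, and many spleen DC of type 2 carry CD4.

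All 3 genes lie on mouse chromosome 6 (GRCm38, GENCODE vM21). Cd8b1 (71322788 to 71337494, plus strand) and Cd8a (71373427 to 71379173, plus strand) are neighbours with 35.9 kb between them, whereas Cd4 (124864692 to 124888221, minus strand) is far away on the same chromosome. No other gene of that annotation overlapped any of the 3, so an unknown strand setting in the counting leaves no antisense partner to confuse them. Cd4 and Cd8b1 each have 1 protein-coding transcript there, and Cd8a has 2 and a pair of annotated 3' ends. The libraries read transcripts near their 3' end, so a read count follows the number of transcripts and not gene length. A ratio of reads between different genes can still carry a fixed bias of each 3' end, and weight is therefore put on how such a ratio differs between populations.

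The stretch in front of Cd8a is shown because, of the 3 genes, only Cd8a matched an entry among the RefSeq promoter sequences (GRCm38.p6). The 250 bases before its start site, chr6:71373177-71373426 on the plus strand, read 5' to 3' with matches to the motifs in capitals:
Cd8a: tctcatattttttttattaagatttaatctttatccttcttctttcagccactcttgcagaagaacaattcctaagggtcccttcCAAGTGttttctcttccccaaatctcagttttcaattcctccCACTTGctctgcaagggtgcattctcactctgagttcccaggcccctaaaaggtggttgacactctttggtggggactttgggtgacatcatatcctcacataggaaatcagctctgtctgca
The motifs searched on both strands were TGTGGT (RUNX factors), CANNTG (the E-box of basic helix-loop-helix factors), GGAAGT (ETS factors) and, for GATA factors, the letters AGATAA. The capitals are 2 E-box matches, which start 165 and 123 bases before the start site and read as CANNTG on either strand. An E-box match is common, since 66.2% of 32851 RefSeq windows of the same length hold one. The RUNX, ETS and GATA letters are held by 14.0%, 19.7% and 9.99% of those windows and are not in this one. A match is a run of letters and not a measured site. GENCODE places an exon of the non-coding gene Gm44174 (plus strand) inside the window. Gm44174 had 7.32, 6.22 and 8.50 CPM in the T cell libraries, no reads in any DC library and at most 0.0897 CPM in TDC, values that were chosen after they were seen. CPM are reads scaled to library size with TMM factors.

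Library totals lay between 10986544 and 25676640 reads, and 1 read was worth at most 0.0897 CPM. The sort labels were checked against lists of defining markers. Cd3e, the CD3 epsilon chain, was at 394, 325 and 342 CPM in T cells, had no reads in any DC library and was at 11.4, 4.96 and 10.7 CPM in TDC. Summed over 15 red pulp macrophage genes, TDC libraries held 60105 to 97741 CPM, DC 199 to 331 CPM and T cells 3.66 to 8.10 CPM. B cell genes summed to 162 to 356 CPM in TDC, 605 to 874 CPM in DC and 720 to 1364 CPM in T cells, with Ighm making up most of the T cell sum. Of the 8 tested B cell genes, TDC exceeded T cells in 3 and fell short of them in 1 by the test. Over all tested genes, 21.8% were called higher and 11.2% lower in that comparison. The receptor gene Cd79a stayed at or below 8.79 CPM in every library, but its partner Cd79b was at 109.9, 60.2 and 82.8 CPM in TDC (log2 fold change 2.18 against T cells, adjusted p = 0.00442). Ms4a1, which encodes CD20, was at 187 to 227 CPM in DC and at 9.42, 6.52 and 28.7 CPM in TDC. Natural killer genes summed to 0.446 to 2.15 CPM in TDC, where Ncr1 had no reads. Erythroid genes summed to 546 to 1666 CPM in TDC and to at most 14.6 CPM in any other library, and all 8 were called higher in TDC than in DC. Neutrophil genes summed to 66.5, 5.69 and 0.298 CPM in TDC replicates 1, 2 and 3 and to at most 2.58 CPM elsewhere, so that replicate 1 was the highest for them and the lowest for Cd4. Fewer cells of a type and less RNA per cell cannot be told apart in such bulk libraries. The parts that other cells took in the coreceptor counts were not tested.

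By group means Cd4 and Cd8b1 shared the order T cells, TDC and DC, whereas Cd8a had the order T cells, DC and TDC. The mean of Cd4 was higher in T cells and TDC than in DC. TDC overlapped with DC in Cd4, and no pair of populations differed in it by the test. Cd8a was high in T cells and DC, and Cd8b1 in T cells alone. The plot of the 3 genes by library shows these patterns. Group values are means ± SD of CPM (n = 3 throughout). All 9 libraries entered 1 fit with edgeR's quasi-likelihood test, p-values were adjusted over 14708 genes by Benjamini-Hochberg with a threshold of 0.05, and fold changes are on the log2 scale. TDC enter 2 of the comparisons and so do the T cells and the DC, so the comparisons are not independent of each other.

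**Figure D1:**
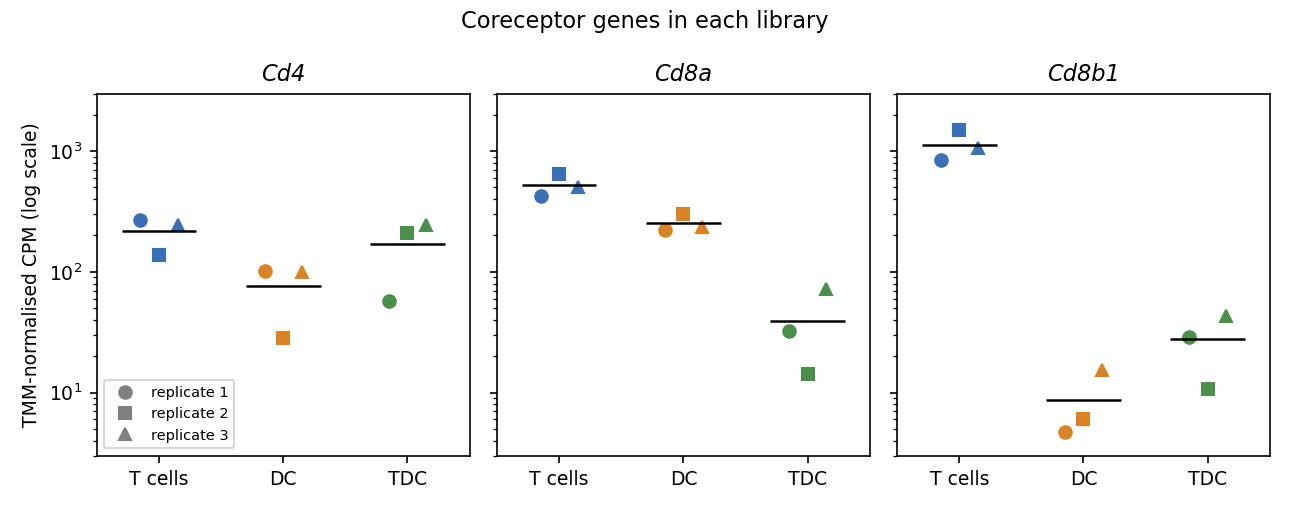
TMM-normalised CPM (log scale) of Cd4, Cd8a and Cd8b1 in each library, with point shape giving the replicate number and a bar at the mean of the 3 libraries of a population. Cd4 in TDC overlaps with both T cells and DC, and Cd8a is lowest in TDC. Cd8b1 is at 844 CPM or more in every T cell library while no other library exceeds 43.4 CPM.

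Cd4, the coreceptor for MHC class II, was the member whose mean level in TDC came closest to that in T cells, at 78.6% of it. In T cells it stood at 266, 137 and 245 CPM in replicates 1, 2 and 3 (216 ± 69.1). TDC had 57.6, 209 and 243 CPM (170.09 ± 98.9), so that replicates 2 and 3 lay within the T cell range and replicate 1 below it. DC had 102, 28.6 and 100.05 CPM (76.9 ± 41.9), with replicate 2 the lowest of all 9 libraries. Among the tested genes of its own library Cd4 ranked between 458 and 1326 in T cells, between 670 and 3542 in TDC and between 1887 and 5224 in DC.

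The difference in Cd4 between TDC and T cells did not pass (log2 fold change -0.35, SE 0.59, adjusted p = 0.694). Its 95% interval ran from -1.64 to 0.95, that is from 0.320 to 1.93 times the T cell level, so 3 libraries a group leave room for a difference of moderate size in either direction. Its direction rested on TDC replicate 1: without that library the log2 fold change was 0.09 (adjusted p = 0.921). The difference between TDC and DC did not pass either (1.14, SE 0.59, 95% interval -0.17 to 2.46, adjusted p = 0.240), and their libraries overlapped. DC lay below T cells in every library, without a call (-1.49, SE 0.60, 95% interval -2.82 to -0.17, adjusted p = 0.0997). Every DC library was below every T cell library for 17.9% of all tested genes, so such a gap is common. The order of levels was T cells, TDC and DC, and no pair of populations differed by the test.

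Cd8a, the alpha chain, was shared by T cells and DC and was low in TDC. It stood at 424, 643 and 501 CPM in T cells (523 ± 111), at 223, 304 and 233 CPM in DC (253 ± 43.9) and at 32.2, 14.3 and 71.6 CPM in TDC (39.4 ± 29.3). No library of one population overlapped with any of another, a gap that 22.4% of all tested genes showed towards lower TDC than T cells and 14.8% towards lower TDC than DC. Cd8a was among the most abundant genes of DC, with ranks of 513 to 706 of the tested genes, and in TDC it ranked between 2874 and 7835.

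TDC were below T cells in Cd8a (log2 fold change -3.73, SE 0.54, 95% interval -4.94 to -2.53, adjusted p = 0.000543) and below DC as well (-2.69, SE 0.52, 95% interval -3.84 to -1.54, adjusted p = 0.00688). The sizes depended on TDC replicate 3, without which they were -4.54 and -3.51. The call against DC ended when replicate 1 was left out of all 3 populations (-2.64, adjusted p = 0.105). DC had 48.5% of the mean T cell level, a difference that did not pass (-1.05, SE 0.49, 95% interval -2.13 to 0.04, adjusted p = 0.158). A fit of the T cell and DC libraries alone did call it (-1.07, adjusted p = 0.0293). The order of levels was T cells, DC and TDC, with only the neighbouring T cells and DC not separated by the main test.

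Cd8b1, the beta chain, was among the most abundant genes of T cells and low in the other populations. With 844, 1492 and 1064 CPM (1134 ± 329.6) it ranked between 48 and 91 among the tested genes of the T cell libraries. DC had 4.75, 6.06 and 15.3 CPM (8.69 ± 5.73), which rest on 124, 87 and 256 reads. TDC had 28.6, 10.8 and 43.4 CPM (27.6 ± 16.4), which rest on 319, 193 and 583 reads. Every T cell library lay far above every other library, and DC replicate 3 overlapped with TDC replicate 2.

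DC lay below T cells in Cd8b1 (log2 fold change -7.03, SE 0.71, adjusted p = 6.57e-05), and so did TDC (-5.36, SE 0.66, adjusted p = 0.000188). Without DC replicate 3 the former was -7.71. TDC were 3.18-fold above DC, with a 95% interval of 1.33 to 7.60-fold. This difference missed the threshold in edgeR's quasi-likelihood test (log2 fold change 1.67, SE 0.57, adjusted p = 0.0795). It passed with all genes kept, however low (adjusted p = 0.0229), with the DESeq2 Wald test (adjusted p = 0.0302) and without DC replicate 3 (2.36, adjusted p = 0.0255). The order of levels was T cells, TDC and DC, with TDC and DC not separated by the main test.

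Counted over the members, 1 of 3 was lower in DC than in T cells, where 8.41% of all tested genes were called lower and 15.4% higher. For TDC against T cells 2 of 3 were lower, against 11.2% of all genes (21.8% were higher). For TDC against DC 1 of 3 was lower, against 4.60% of all genes (9.55% were higher). The list of 3 is too short to be read as a group, and its members did not move together. Over the 9 libraries the log2 levels of Cd8a and Cd8b1 had a Pearson r of 0.54, Cd4 and Cd8b1 of 0.56, and Cd4 and Cd8a of 0.00, a description of points that share their populations.

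The make-up of the coreceptor reads, which does not depend on how libraries are scaled, was led by a different gene in each population. Of the reads of the 3 genes together, Cd8b1 took 55.0%, 65.6% and 58.8% in the T cell libraries. In DC Cd8a took 67.6%, 89.8% and 66.9%, with Cd8b1 at 1.44%, 1.79% and 4.38%. In TDC Cd4 took 48.6%, 89.3% and 67.9%, above its share of 6.05% to 17.4% in T cells and of 8.44% to 30.9% in DC. The exact binomial 95% interval was widest for Cd4 in TDC replicate 1, the library with the fewest coreceptor reads (1320), where it ran from 45.9% to 51.4%. These intervals cover counting error only.

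**Figure D2:**
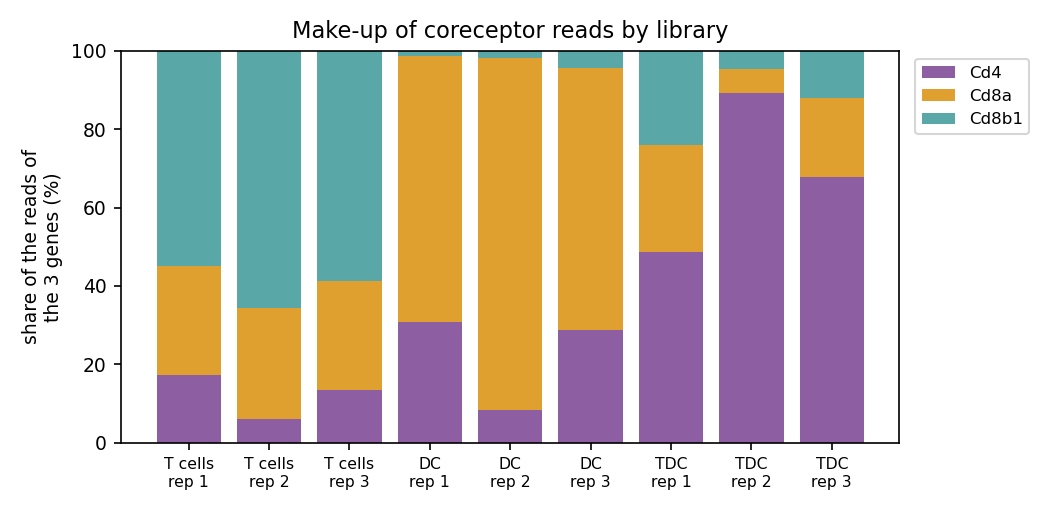
Share of Cd4, Cd8a and Cd8b1 in the summed reads of the 3 genes (%), one bar for each library. Cd8b1 makes up at least 55.0% in T cells, Cd8a at least 66.9% in DC and Cd4 at least 48.6% in TDC.

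The Cd8a to Cd8b1 ratio separated all 3 populations. It compares the reads of both CD8 chains within a library. Equal reads need not mean equal message, given the possible fixed bias of each 3' end. T cells had 0.503, 0.431 and 0.471 Cd8a reads per Cd8b1 read (0.468 ± 0.0358). DC had 47.1, 50.1 and 15.3 (37.5 ± 19.3), and TDC had 1.13, 1.33 and 1.65 (1.37 ± 0.264). The ranges did not overlap: TDC libraries all lay above 1, T cells all below, and the lowest DC library far above the highest of TDC.

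On the log2 scale, with 0.5 reads added to both counts, the mean ratio of DC exceeded that of T cells by 6.14, or 70.4-fold. That of TDC exceeded that of T cells by 1.53, or 2.89-fold, and lay below that of DC by a log2 difference of -4.61. Each of these 3 differences had p = 0.1 in a two-sided exact permutation test of 3 libraries against 3, the smallest p this design allows (adjusted p = 0.12 over the 6 ratio comparisons made). Leaving out single libraries gave 1.39 to 1.66 for TDC against T cells. As a share of the CD8 reads, Cd8a made up 30.1% to 33.5% in T cells, 93.9% to 98.0% in DC and 53.0% to 62.2% in TDC. Only the counting interval of TDC replicate 1 (49.1% to 56.8%) included equal reads of both genes.

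**Figure D3:**
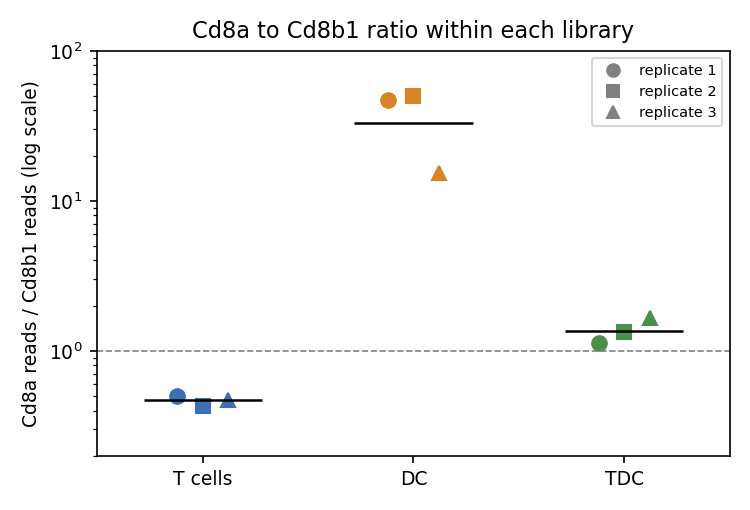
Cd8a reads per Cd8b1 read in each library (log scale), with a bar at the geometric mean of the 3 libraries and a dashed line at equal reads. T cells lie between 0.431 and 0.503, TDC between 1.13 and 1.65 and DC between 15.3 and 50.1.

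The 3 members were then set beside other T cell genes to see which of them stood at a like share of the T cell level. The 13 genes of a list of CD3 chains, receptor constant genes and T cell surface proteins were all called lower in TDC than in T cells, with a median log2 fold change of -5.47 beside 0.14 over all tested genes. Their mean TDC level was 1.62% (Trbc1) to 5.01% (Cd6) of the T cell mean, with a median of 2.26%. Cd8b1 lay inside that range, at 2.44%. Cd8a lay above it at 7.53%, with the replicates at 6.16%, 2.73% and 13.7%. The size of that mean depended on TDC replicate 3, without which it was 4.44%. The range of the 13 genes includes replicate 3, so 4.44% cannot be set against it. In replicates 1 and 3 Cd8a was above all 13 genes, of which the highest were Cd27 (4.16%) and Cd6 (9.39%). In replicate 2 alone Cd8a was below Cd6 (2.81%) and Cd28 (2.79%). Cd4 lay above the range in every replicate, with a mean of 78.6%. Lck, the kinase that binds the tails of CD4 and CD8 alpha, was at 2.40%, with 54.2, 25.8 and 89.2 CPM in TDC against 1987, 2437 and 2613 CPM in T cells. Its log2 fold change was -5.38 (adjusted p = 0.00124).

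**Figure D4:**
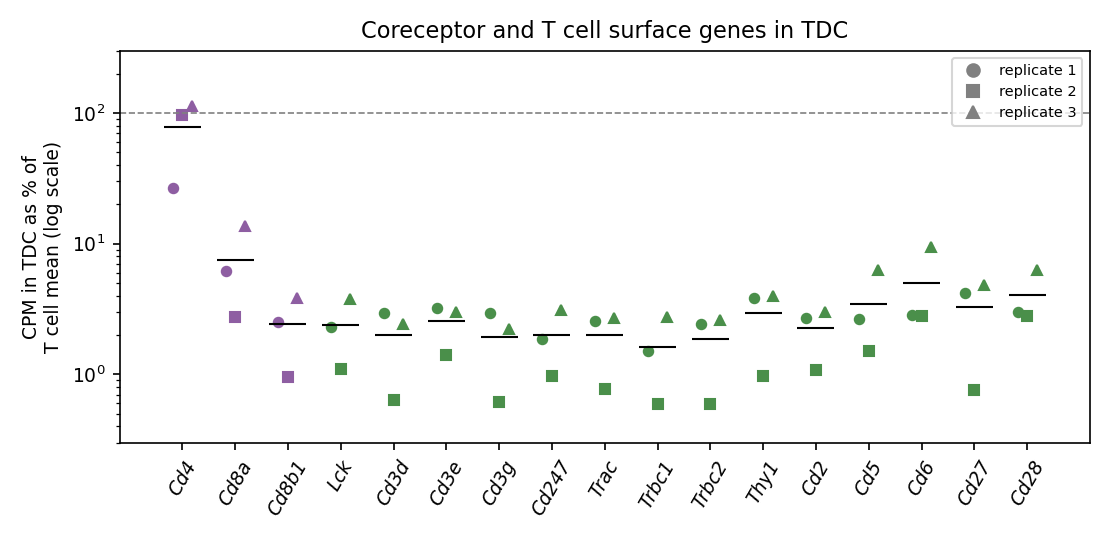
CPM in each TDC library as a percentage of the T cell mean (log scale) for the coreceptor genes (purple), Lck and 13 T cell surface genes (green), with a bar at the TDC mean and a dashed line at the T cell level. Cd4 replicates stand at 26.6%, 96.7% and 112.5%, and the Cd8a mean stands at 7.53%. The means of Cd8b1, Lck and the surface genes stand between 1.62% and 5.01%.

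Within libraries, TDC held 5.06, 42.2 and 22.8 Cd4 reads for each Cd3e read, and T cells held 0.676, 0.423 and 0.716. The mean log2 ratio was 4.84 higher in TDC, a 28.6-fold difference (two-sided exact permutation p = 0.1, the smallest possible, adjusted p = 0.12). The size depended on single TDC libraries, with 52.4-fold without replicate 1 and 18.2-fold without replicate 2. For Cd8a the ratios were 2.83, 2.88 and 6.72 in TDC and 1.08, 1.98 and 1.47 in T cells, without overlap and with a difference of 1.37 (exact permutation p = 0.1, adjusted p = 0.12). For Cd8b1 they were 2.51, 2.17 and 4.08 in TDC and 2.14, 4.59 and 3.11 in T cells. Here the populations overlapped, with a difference of -0.16 (exact permutation p = 0.8, adjusted p = 0.8) that turned to 0.12 without T cell replicate 2 and to 0.03 without TDC replicate 2.

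The libraries that were high or low differed between the members as well. In TDC, Cd8a, Cd8b1, Lck and Cd3e were all lowest in replicate 2, whereas Cd4 was lowest in replicate 1. In T cells, replicate 2 had the lowest Cd4 and the highest Cd8a and Cd8b1. The 14 cytotoxic T cell genes listed summed to 2872 CPM in that library and to 1482 and 1957 CPM in the others. The 10 helper and regulatory genes also had their highest sum there, with 919.6 CPM against 680 and 625 CPM.

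Most genes that go with CD4+ or with CD8+ T cells were called lower in TDC. Of the 10 helper and regulatory genes, 7 were lower in TDC than in T cells (median log2 fold change -4.92). The shares over all tested genes were 11.2% lower and 21.8% higher. Cd40lg, the ligand by which helper cells activate B cells, was at 173 ± 18.2 CPM in T cells and at 1.17, 1.95 and 6.48 CPM in TDC (log2 fold change -5.75, adjusted p = 0.000400). Foxp3, a factor of regulatory T cells, was at 1.35, 2.01 and 4.47 CPM in TDC against 26.7 to 35.7 CPM in T cells (-3.53, adjusted p = 0.00304). The cytotoxic list had 12 of 14 genes lower and 1 higher (median -5.51). Nkg7, a granule membrane protein, was at 23.2, 4.63 and 13.9 CPM in TDC against 389 to 1195 CPM in T cells (-5.73). The higher gene was Klrk1, the receptor NKG2D, at 83.6, 87.7 and 71.6 CPM in TDC and 20.9 to 43.6 CPM in T cells (1.38, adjusted p = 0.0109), named after its values were seen.

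Of the partners that carry the coreceptor signal, 5 of 10 were lower in TDC than in T cells and 1 was higher (median log2 fold change -2.16). All tested genes had 11.2% lower and 21.8% higher. Lat, the adaptor downstream of the receptor kinases, was at 32.7, 11.9 and 36.8 CPM in TDC and 1013 to 1537 CPM in T cells (-5.48). Zap70, the kinase that Lck activates, was lower as well (-4.50). The higher gene was Lcp2, an adaptor that myeloid cells also use (0.97, adjusted p = 0.0177), named after its values were seen. Against DC, 5 of the 10 were higher in TDC, beside 9.55% of all tested genes, among them Lck (5.68, adjusted p = 0.00296).

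The ligands of the coreceptors differed by class. H2-Ab1, a chain of the class II ligand of CD4, was at 4645, 1870 and 3696 CPM in TDC and 17476 to 36864 CPM in DC, without overlap but without a call (adjusted p = 0.128), and no T cell library exceeded 6.12 CPM. Class I genes were abundant everywhere: H2-K1 had 4198, 2497 and 3045 CPM in TDC, 2366 to 3327 CPM in DC and 4848 to 5647 CPM in T cells, and B2m, the shared class I light chain, had 2193 to 8106 CPM over the 9 libraries. Neither passed in any comparison with TDC. Il16, a secreted ligand of CD4, was higher in TDC (280 ± 30.6 CPM) than in DC (114 ± 30.5 CPM, log2 fold change 1.29, adjusted p = 0.0168) and overlapped with T cells. Lag3, the CD4 relative that also binds class II and is a neighbour of Cd4 on the chromosome, was at 13.8, 11.8 and 9.46 CPM in TDC and at no more than 0.103 CPM in T cells (7.22, SE 1.21, adjusted p = 0.00134).

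Transcription factors known to act on the Cd4 and Cd8 loci were mostly lower in TDC than in T cells, with 9 of 16 called lower (median log2 fold change -2.96). Of all tested genes 11.2% were called lower. Zbtb7b, which encodes ThPOK, the factor that fixes the CD4 fate in the thymus, was at 4.67, 6.02 and 5.81 CPM in TDC and 7.17 to 15.3 CPM in T cells and did not pass (-0.95, adjusted p = 0.193). Runx3, which silences Cd4 and keeps Cd8 on in cytotoxic T cells, was at 0.539, 3.85 and 16.8 CPM in TDC, at 40.7 to 65.3 CPM in T cells and at 96.4 to 119.5 CPM in DC. It was lower in TDC than in T cells (-2.84, adjusted p = 0.0254) and than in DC (-3.88, adjusted p = 0.0150), and its TDC level was lowest in replicate 1. Gata3 and Tox, which take part in the CD4 lineage in the thymus, were at 0.539 to 5.66 CPM and 0.725 to 3.65 CPM in TDC and were lower than in T cells (-4.38 and -4.63).

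DC were the other population with much Cd8a and some Cd4, and markers of both spleen DC types were measured beside them. Xcr1 and Clec9a, receptors of type 1 DC, were at 189 to 229 CPM and 87.2 to 143 CPM in DC. In TDC they were at 23.2, 10.6 and 60.4 CPM and at 14.9, 5.02 and 23.7 CPM. In TDC, Cd8a and these 2 genes had their lowest value in replicate 2 and their highest in replicate 3. That order was held by 4 of 13 type 1 genes, 4 of 14 type 2 genes and 10 of 13 T cell surface genes. Its share over all tested genes was not counted. The fold changes of Xcr1 and Clec9a between TDC and DC (log2 -2.69 and -2.92, adjusted p = 0.0108 and 0.0118) stood beside -2.69 for Cd8a. Over the 13 type 1 genes these log2 values ran from -3.76 (Itgae) to 2.18 (Cadm1), with Irf8 at -0.01. Itgae and Irf8 were named after their values were seen. Of the 13 type 1 genes, 6 were lower in TDC than in DC and 2 higher (Cadm1 and Id2, named after their values were seen), with a median log2 fold change of -1.63. All tested genes had 4.60% lower and 9.55% higher.

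Type 2 genes gave a mixed picture beside Cd4. In DC, replicate 2 had the lowest Cd4, the lowest Sirpa (173 CPM against 659 and 514 CPM) and the highest Clec4a4 (237 CPM against 127 and 79.0 CPM), both genes of type 2 DC. In TDC, Clec4a4 was at 4.31, 2.68 and 8.79 CPM, lower than in DC (log2 fold change -4.82, adjusted p = 0.00218), and Esam, another gene of CD4+ DC, was at 97.6, 47.5 and 42.0 CPM and did not pass (-0.63, adjusted p = 0.420). Sirpa, which macrophages also carry, was higher in TDC, at 1718, 5460 and 2928 CPM (2.91, adjusted p = 0.00968). The list had 5 of 14 genes lower and 1 higher in TDC than in DC, beside 4.60% lower and 9.55% higher over all tested genes. Sirpa was named after its values were seen.

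Red pulp macrophage genes were the most abundant of the marker lists in TDC by summed CPM. All 15 were called higher in TDC than in either control (median log2 fold change 10.16 against DC), among them Adgre1, which encodes F4/80, at 1515, 3148 and 2000 CPM. Within TDC, 7 of the 15 were lowest in replicate 1, as Cd4 was, and the other 8 were lowest in replicate 3. Adgre1 and Axl were among the former, with Axl at 1547, 7325 and 2749 CPM, and the sum of the 15 genes was lowest in replicate 3. By their highest value, 7 of the 15 peaked in replicate 1, where Cd4 was lowest, and 8 in replicate 2. Hmox1 was among the genes that peaked in replicate 1, at 17838, 10289 and 7717 CPM. The share of all tested genes with these orders was not counted. Of 12 tested plasmacytoid DC genes, 3 were called higher and 2 lower in TDC than in DC, beside 9.55% higher and 4.60% lower over all tested genes. Siglech was at 7.72, 13.0 and 30.6 CPM in TDC and 12.1 to 15.4 CPM in DC and did not pass (adjusted p = 0.786), and the 2 lower genes were Bcl11a (7.34 CPM in TDC, 102 CPM in DC, adjusted p = 0.00738) and Runx2 (2.03 and 21.6 CPM, adjusted p = 0.0252). The part of any of these cells in the Cd4 and Cd8a reads of TDC was not tested. Axl, Bcl11a and Runx2 were named after their values were seen.

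The genes whose pattern was most like each member were sought among 9522 genes with at least 10 CPM in their highest population, by Pearson r of log2(CPM + 0.5) over the 9 libraries, which share their populations. Nearest to Cd4 were Tbl1x (r = 0.98), Arhgap4 (0.96) and Jak1 (0.96). Tbl1x had 94.6, 72.0 and 103 CPM in T cells, 67.1, 28.8 and 61.1 CPM in DC and 39.8, 82.2 and 87.8 CPM in TDC, so it too was lowest in DC replicate 2 and, among TDC, in replicate 1. Nearest to Cd8a were the lymphotoxin gene Ltb (0.99), Grap (0.99) and Tbc1d10c (0.99). Ltb went from 1094 ± 257 CPM in T cells over 436 ± 149.7 CPM in DC to 44.0 ± 26.4 CPM in TDC. Nearest to Cd8b1 were Ampd1 (0.99), Actn2 (0.99) and Cd247, the zeta chain of the T cell receptor complex (0.99), which T cells held at 423 ± 35.9 CPM, TDC at 8.40 ± 4.55 CPM and DC at 1.43 ± 1.76 CPM.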

How the data were processed

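RNA was measured in 9 libraries of 3 sorted populations. The values are raw read counts per gene, deposited by the authors as whole numbers that are not normalised. Per the labels' protocols, libraries were prepared with Lexogen's stranded QuantSeq chemistry. The submitters' processing notes list STAR and featureCounts beside Trimmomatic, FastQC and MultiQC. Their versions and settings are not given in these sources, and the notes name hg38 although the gene symbols are mouse. Columns were matched to samples by the description in the labels.

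Counts were tested with edgeR 4.0.16 (R 4.3.3): filterByExpr (minimum count 10, minimum total 15), TMM factors and 1 robust quasi-likelihood fit over the 3 groups, with 6 residual degrees of freedom and adjustment by Benjamini-Hochberg. SEs are the log2 fold change over the root of the F statistic, and 95% intervals use 10.4 degrees of freedom. The common biological coefficient of variation was 0.588. Between libraries of a group, chi-square per degree of freedom ran from 67.9 to 275, so none repeated another. Ratios were compared with two-sided exact permutation tests. Alternatives were other scalings, filters and tools (DESeq2 1.42.0, limma 3.58.1), a block for the replicate number, fits of 2 groups alone, and left-out libraries. The members and the 15 gene lists (162 entries, all found) were chosen with earlier results of these data known. Named genes were the members, up to 4 of each list by adjusted p, 24 fixed genes, 3 genes of nearest pattern for each member, and 3 chromosomal neighbours on each side. Further genes were named outside these rules after their values were seen, and the text says so where they appear. No library was left out.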

Additional observations from a re-analysis of the deposited data

How the results depend on the processing

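Of the 9 member results, each under 21 alternatives, 182 of 189 values kept their direction and side of the threshold. The exceptions were Cd8a in DC against T cells when only both groups were fitted (-1.07, adjusted p = 0.0293), Cd8b1 in TDC against DC without the filter (1.67, adjusted p = 0.0229), with the DESeq2 Wald test (1.65, adjusted p = 0.0302) and without DC replicate 3 (2.36), Cd8a in TDC against DC without replicate 1 (-2.64) and Cd4 in TDC against T cells without TDC replicate 1 (0.09) or without replicate 1 (0.25). The cause was not tested. Leaving out libraries gave -0.78 to 0.25 for Cd4 in TDC against T cells, -3.52 to -2.20 for Cd8a and 1.08 to 2.36 for Cd8b1 in TDC against DC, and -0.43 to 0.12 for the Cd8b1 to Cd3e ratio, whose sign turned without TDC replicate 2 (0.03) or replicate 2 of T cells (0.12).

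Counts of called genes moved more. With library sizes as the only scaling, 1886 genes were lower in DC and 3321 in TDC than in T cells, against 1237 and 1654, the share of higher calls went from 64.7% to 50.2% and from 66.0% to 42.9%, and for TDC against DC from 67.5% to 53.1%. That scaling moved the log2 median over all genes by -0.29 for DC against T cells, by -0.61 for TDC against T cells and by -0.29 for TDC against DC (upper-quartile factors by -0.08, -0.25 and -0.13), and Cd4 in TDC against T cells was then -0.92 (adjusted p = 0.290). Genes lower in TDC than in DC numbered 677, but 1234 with the DESeq2 Wald test, 1051 with limma-voom and 431 with the replicate block. Over left-out libraries the counts were 1283 to 2492 higher and 552 to 1384 lower in DC against T cells, 1984 to 3585 higher and 652 to 1945 lower in TDC against T cells (937 without TDC replicate 2 and 1030 without replicate 2 of T cells), and 548 to 1365 higher and 81 to 611 lower in TDC against DC (897 higher and 293 lower without TDC replicate 2, 418 lower without DC replicate 1 and 447 lower without TDC replicate 1).

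Libraries of 1 replicate number share a code in their descriptions, but the labels do not say that they share animals or a preparation, and the data did not show pairing: deviations of same-numbered libraries correlated at -0.384 to 0.224 over 9 pairs, and no library was closest to its own number in both other populations. The replicate block changed no call of a member (Cd4 in TDC against T cells -0.29, Cd8a -3.85, Cd8b1 -5.53). For the ratios, an exact permutation within 3 pairs cannot go below p = 0.25. Depth limits Cd8b1 most, which rests on 87 to 583 reads outside T cells.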

Other observations

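The genes next to the members on chromosome 6 had patterns of their own. Beside Cd4 (RefSeq order, GRCm38.p6), P3h3, a collagen-modifying enzyme, had no reads in T cells, while DC held it at 4.54 ± 2.62 CPM and TDC at 6.33 ± 0.373 CPM. Ptms, beyond Lag3, was at 1.15 ± 0.411 CPM in T cells, while DC held 12.8 ± 1.66 CPM and TDC 15.3 ± 5.92 CPM, with edgeR adjusted p = 0.000699 for TDC against T cells. Gpr162, the nearest gene on the other side, was at 0.0469 ± 0.0812, 1.46 ± 0.806 and 0.180 ± 0.187 CPM in T cells, DC and TDC, and Gnb3 had 11 reads in all libraries together. The non-coding gene A230083G16Rik had 56.

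Around the CD8 pair, Rnf103, a ubiquitin ligase, was at 189 ± 39.3 CPM in TDC, above T cells (57.5 ± 17.0 CPM, edgeR adjusted p = 0.00342) and DC (52.2 ± 14.9 CPM, adjusted p = 0.00556). Rmnd5a was at 67.5 ± 25.8 CPM in TDC beside 18.4 ± 5.10 CPM for T cells, a difference that passed as well (edgeR adjusted p = 0.0145). Krcc1 on the other side was at 64.5 to 82.7 CPM in the group means and did not pass in any comparison, nor did Chmp3, at 89.8 to 140.03 CPM. None of these 4 tested neighbours was called lower in TDC. Such a call is uncommon, with 11.2% of all tested genes lower than in T cells and 4.60% lower than in DC. Gm1070, which lies next to Cd8b1, had 63 reads in all libraries, and Mir8112 had none.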
